A study of Mus musculus with 24 samples.

Results

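Acta2, Rgs5 and Lmod1 are markers of mural cells, the smooth muscle cells and pericytes that wrap blood vessels, and were followed here in whole tibialis anterior muscle of mice with and without the histone chaperone gene Hira in their muscle fibres. They are 3 of the 17742 genes, and 4 of the 26423 probe rows, that the array table holds: every row annotated with one of these symbols was taken, 2 for Acta2 and 1 each for Rgs5 and Lmod1. The genes had been picked because earlier results of these data showed a difference between knockout and control, so their differences are given as a description, with no test. The study compared muscle of 4 control and 4 knockout animals aged 6 months, with 3 hybridisations per animal and thus 24 arrays.

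Controls were Myf6 cre/+; Hira flox/+ and knockouts Myf6 cre/+; Hira flox/- (strain C57BL6/J;129S1/SvImJ). All animals thus carried Cre in the Myf6 gene, which encodes a muscle regulatory factor of differentiated fibres. By genotype, control fibres kept 1 intact copy of Hira. The null allele was present in all cells of a knockout animal, vessel cells included, and was absent from controls. Fibres, vessels, nerves and connective tissue were extracted together, so that fewer cells of a type and less RNA per cell cannot be told apart. The dye is given as Cy3 in one label and as Cy5 in the labelling protocol. Animals were numbered 1 to 4 within a group by order of deposit without any pairing between groups. The animals' own numbers fall into a lower and a higher series, called series A (animals 1 and 2 of each group) and series B (animals 3 and 4).

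Values are log2 of the deposited intensity, with values under a floor of 38.8 set to that floor, and a gene with several rows is represented by its brightest. All arrays had a median of 626.429. Pearson's r lay between 0.985 and 0.995 for arrays sharing an animal and between 0.976 and 0.993 for arrays of different animals of a group. Between arrays of different groups it lay between 0.968 and 0.987. It was taken over the 17742 genes, each with its brightest row, and genes are not independent replicates. The 5th percentile of an array reached at most 125, and genes under this level in a group are called dim here. Across all genes, 1647 of 17742 (9.28%) passed limma at a Benjamini-Hochberg adjusted p under 0.05. Of all genes, 759 (4.28%) passed as higher in knockout and 888 (5.01%) as lower, and the median difference was -0.07. Hira itself lay at 8.85, 9.11, 8.92 and 8.99 in the controls and at 8.63, 9.31, 8.52 and 8.83 in the knockouts, which overlapped (difference -0.15 ± 0.17 SE, limma adjusted p = 0.623). The place of its probe relative to the deleted part is unknown here, so this row does not check the labels.

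Smooth muscle cells contract through a thin filament system of their own. Acta2 encodes smooth muscle alpha actin, the main actin of these cells, and Lmod1 encodes the smooth muscle leiomodin, which nucleates actin filaments. Rgs5 encodes a regulator of G protein signalling that speeds the switching-off of Gq and Gi alpha subunits downstream of vasoconstrictor receptors, and it is a widely used pericyte marker. Serum response factor (Srf) with its partners of the myocardin family binds CArG boxes near many contractile genes, TEAD factors bind MCAT elements, and Rbpj acts in Notch signalling between endothelium and mural cells.

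The sequences before the start sites of the 3 genes are shown because Acta2 and Lmod1 are both textbook targets of Srf and differed in opposite directions here. They are the 250 bases before the annotated start in RefSeq, build GRCm38.p6, 5′ to 3′ on the gene's strand. Capitals mark matches to the motifs searched: MCAT (CATTCC), the Rbpj site (TGGGAA), each on both strands, and sequences that differ at 1 letter from the CArG box, which is CC, then 6 letters A or T, then GG and reads as a CArG box on both strands.
Acta2: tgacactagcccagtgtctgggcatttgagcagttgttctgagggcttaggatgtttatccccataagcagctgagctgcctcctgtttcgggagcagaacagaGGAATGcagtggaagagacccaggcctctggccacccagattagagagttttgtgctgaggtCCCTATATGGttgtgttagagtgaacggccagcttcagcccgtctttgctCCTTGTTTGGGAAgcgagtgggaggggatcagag
Rgs5: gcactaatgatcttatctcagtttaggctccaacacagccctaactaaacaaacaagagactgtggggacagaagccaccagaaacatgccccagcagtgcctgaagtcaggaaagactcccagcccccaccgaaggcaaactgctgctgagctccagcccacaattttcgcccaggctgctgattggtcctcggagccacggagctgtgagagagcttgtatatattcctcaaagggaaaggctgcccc
Lmod1: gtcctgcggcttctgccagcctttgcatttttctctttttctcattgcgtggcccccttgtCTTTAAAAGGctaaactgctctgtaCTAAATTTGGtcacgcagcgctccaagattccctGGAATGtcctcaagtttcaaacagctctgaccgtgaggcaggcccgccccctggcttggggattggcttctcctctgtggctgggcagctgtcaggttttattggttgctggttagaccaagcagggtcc
The Acta2 stretch is chr19:34255374-34255623 on the minus strand. The Rgs5 stretch is chr1:169655251-169655500 and that of Lmod1 is chr1:135324563-135324812, both on the plus strand.

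The search covered these stretches and the first 50 bases of the transcripts, 300 bases a window, and found no match in those 50 bases. The Acta2 window held an MCAT on the reverse strand, its first base at -146 from the start, CArG-like sequences at -84 and -34, and an Rbpj match at -27 that overlaps the latter. Lmod1 held CArG-like sequences at -189 and -164 and an MCAT on the reverse strand at -130. Rgs5 had no match, which says only that these letters are not in this window. No exact CArG box was found in any of the 3. The search with 1 letter off was added after the exact search had been seen.

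Such matches are common. Over all 32851 windows of the RefSeq table, 1.63% held an exact CArG box, 19.9% a CArG-like sequence, 3.70% at least 2 CArG or CArG-like sequences, 14.7% an MCAT and 25.6% an Rbpj match. Among the smooth muscle contractile genes listed here, 5 had windows, of which 3 held a CArG-like sequence, 4 an MCAT and 0 an exact CArG box. These 5 include Acta2 and Lmod1, whose matches are given above. Of the others, Cald1 held a CArG-like sequence, Cald1 and Smtn an MCAT, and Cnn1 neither. Among 11 pericyte genes with windows, Rgs5 included, 3 held a CArG-like sequence, 3 an MCAT and 6 an Rbpj match. The counts are of genes, which had 6 and 13 windows, while the shares are of windows, so nothing is read from setting them side by side. The arrays measure RNA, and no binding was measured.

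Acta2 transcript was lower in knockout muscle. On the brighter row (mMR027770) the 4 control animals lay at 14.75, 14.83, 14.90 and 14.55 and the 4 knockout animals at 13.89, 14.09, 14.33 and 14.23. The groups did not overlap, with a gap of 0.21 between the lowest control, animal 4, and the highest knockout, animal 3. Means were 14.76 ± 0.15 and 14.14 ± 0.19 (SD, n = 4 each), that is, intensities of about 27706 and 17999. The difference was -0.62 ± 0.13 (SE; 95% interval -0.91 to -0.33), 1.54-fold lower. The single arrays did not overlap: the 12 control arrays ran from 14.49 to 15.08 and the 12 knockout arrays from 13.70 to 14.44. Here and below, single arrays are 3 per animal and not separate replicates, and nothing is read from their separation. The SD between the 3 hybridisations of an animal was 0.0835 to 0.245, so hybridisations of the same RNA spread about as widely as animals of a group.

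The dimmer Acta2 row (mMR027757) showed the same direction at a lower signal. Controls lay at 10.77, 10.84, 11.15 and 10.33 and knockouts at 9.94, 10.26, 10.20 and 9.99. Control animal 4 was again the lowest control, and the gap to the highest knockout was 0.078. The means of 10.77 ± 0.34 and 10.10 ± 0.15 (SD, n = 4 each) differed by -0.68, 1.60-fold lower. On this row the single arrays overlapped, with controls from 10.25 to 11.25 and knockouts from 9.87 to 10.36. The probe sequences were not used here, so binding of other actin transcripts to these rows was not tested.

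Rgs5 transcript was lower by nearly the same factor. Its row (PH_mM_0005164) read 11.73, 11.68, 11.58 and 11.45 in the controls and 10.84, 11.25, 10.96 and 10.95 in the knockouts. The groups did not overlap (gap 0.19), and knockout animal 2 stood highest among the knockouts. The means were 11.61 ± 0.12 and 11.00 ± 0.18 (SD, n = 4 each), intensities of about 3123 and 2048. The difference was -0.61 ± 0.13 (SE; 95% interval -0.89 to -0.33), 1.52-fold lower. The single arrays ran from 11.36 to 11.86 in controls and from 10.55 to 11.34 in knockouts, a narrow separation without overlap.

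Lmod1 transcript was higher in knockout muscle, opposite to Acta2. Its row (PH_mM_0008335) read 8.09, 7.88, 8.21 and 7.93 in the controls and 8.91, 8.38, 8.64 and 9.24 in the knockouts. The groups did not overlap (gap 0.17), and the knockouts were spread more widely, from animal 2 as the lowest to animal 4 as the highest. The means were 8.03 ± 0.15 and 8.79 ± 0.37 (SD, n = 4 each), with a difference of 0.77 ± 0.18 (SE; 95% interval 0.38 to 1.15), 1.70-fold higher. Intensities were low, about 261 in controls and 444 in knockouts, and the single arrays ran from 217 to 752 against the dim level of 125. Single arrays overlapped slightly, with controls up to 8.29 and knockouts down to 8.24.

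**Figure D1:**
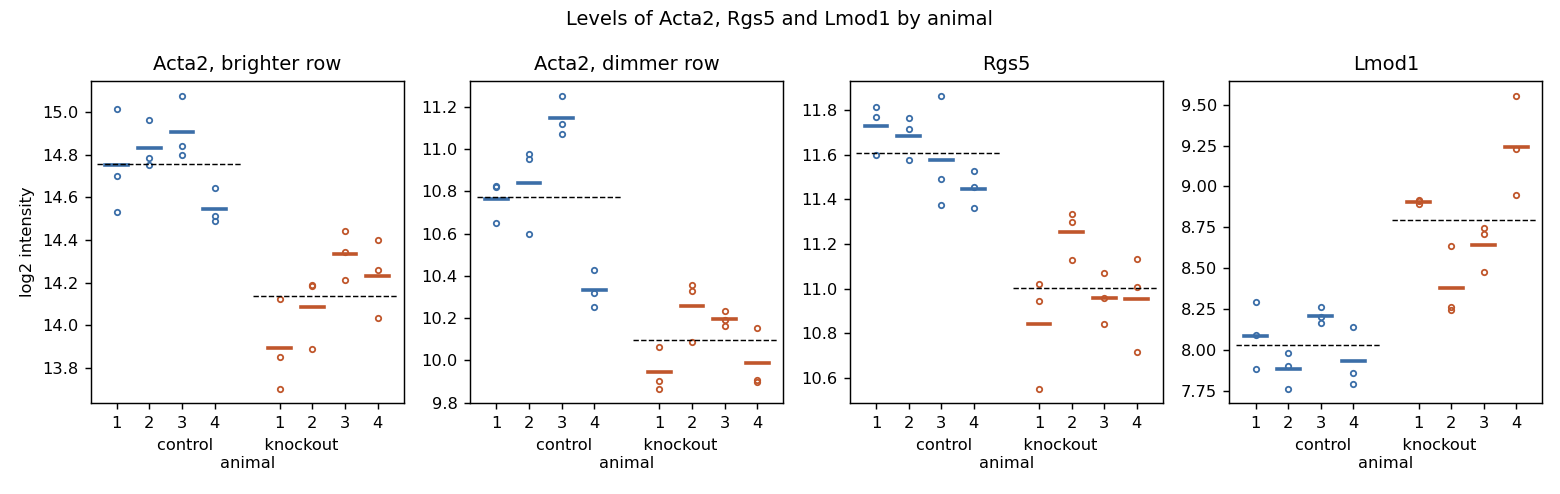
Level of the 4 probe rows by animal, as log2 intensity on a separate axis for each row (axes do not start at 0); open circles are the 3 hybridisations, coloured bars the animal's mean and dashed lines the group mean. Acta2 and Rgs5 animals of the knockout group all lie below the control animals, and Lmod1 animals all lie above, with gaps of 0.21, 0.19 and 0.17 between the groups on the rows standing for the genes.

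All 3 genes thus had groups of 4 that did not overlap, as did 3096 of the 17742 genes (17.5%), and nothing is read from this count since the genes were chosen on it. Within series A alone, where 2 controls met 2 knockouts, the differences were -0.80 for Acta2, -0.66 for Rgs5 and 0.66 for Lmod1. Within series B they were -0.44, -0.56 and 0.87. With groups that do not overlap, the sign within a series is fixed, and nothing is read from it. The size for Acta2 was 1.74-fold in series A and 1.36-fold in series B.

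Among the other contractile genes of smooth muscle, Tagln and Smtn fell. Of 12 listed contractile genes 7 were measured. Of the 5 other than Acta2 and Lmod1, 0 rose and 2 fell, while 5.01% of all genes fell. All 5 differences were negative, with a median of -0.38 against -0.07 over all genes. Tagln, which encodes the actin-binding protein transgelin, lay at 7.76, 7.46, 7.79 and 7.53 in controls and at 7.10, 7.03, 7.06 and 7.01 in knockouts. It fell by 0.59 ± 0.12 (SE; limma adjusted p = 0.00988), and its knockout level was barely above the dim level. Smtn, which encodes smoothelin of the contractile apparatus, fell by 0.44 ± 0.12 from 14.50 to 14.05 (limma adjusted p = 0.0365). The Smtn call was lost without any 1 of 7 of the 8 animals, while that of Tagln held in all 8 such fits.

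The remaining contractile genes did not pass. Aoc3, a vascular amine oxidase of smooth muscle, differed by -0.38 ± 0.14 (limma adjusted p = 0.125), and Cald1, which encodes the actin-binding caldesmon, by -0.06 ± 0.13. Cnn1, which encodes calponin, was dim in both groups. The summed intensity of the 5 measured contractile genes other than Acta2 and Lmod1 was 26459 to 31994 in control animals and 20328 to 23819 in knockout animals. This separation rested on Smtn: without it the sums were 5007 to 6526 and 4835 to 6134, which overlapped. Lmod1 was the single positive difference among the 7.

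Pericyte genes mostly had negative differences that did not pass. Of 20 listed genes 15 were measured, and of the 14 other than Rgs5, 0 rose, 0 fell and 12 had a negative difference, with a median of -0.23. The genes of smallest p after Rgs5 were Ndufa4l2, a mitochondrial subunit-like protein abundant in pericytes (-0.53 ± 0.16, limma adjusted p = 0.0605), and Art3, an ADP-ribosyltransferase family member (-0.46 ± 0.14, limma adjusted p = 0.0610). In both, the 4 control animals lay above the 4 knockout animals, but groups did not overlap in 17.5% of all genes. Each passed in 10 of 28 other settings. With the number series as a block, 3 pericyte genes other than Rgs5 fell, namely Art3, Ndufa4l2 and Steap4, and with all arrays fitted and the animal as a random block Higd1b fell too, which made 4. Steap4, a metalloreductase, differed by -0.56 ± 0.20 (limma adjusted p = 0.110) and Higd1b by -0.66 ± 0.27 (limma adjusted p = 0.156).

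The classical pericyte surface markers did not pass. Pdgfrb, the receptor by which endothelial PDGF-B recruits pericytes, differed by -0.23 ± 0.21 (95% interval -0.68 to 0.23). Cspg4, the NG2 proteoglycan, differed by -0.10 ± 0.11 (-0.34 to 0.14), and Mcam, the adhesion molecule CD146, by -0.12 ± 0.14 (-0.42 to 0.18). Kcnj8 and Abcc9 encode the pore and the sulphonylurea receptor of the vascular ATP-sensitive potassium channel. Kcnj8 differed by -0.52 ± 0.30, with an SD of 0.76 among knockout animals against 0.12 among controls, and Abcc9 by -0.11 ± 0.13. Vtn differed by -0.23, Cox4i2 by -0.30 and Rgs4 by -0.17, and Anpep (0.07) and Tbx18 (0.11) were the positive differences. None of these passed.

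The summed intensity of the 14 pericyte genes other than Rgs5 was 141967 to 165795 in controls and 104779 to 134264 in knockouts. This separation rested on Art3, which held 49.1% of the control sum of the 15 genes: without it the sums were 68876 to 83348 and 59141 to 70924, which overlapped. Contractile and pericyte genes together made 22 measured genes, of which 19 had a negative difference, with a median of -0.27. Without Acta2, Rgs5 and Lmod1 there were 19, of which 17 were negative, 2 fell and 0 rose, with a median of -0.25.

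**Figure D2:**
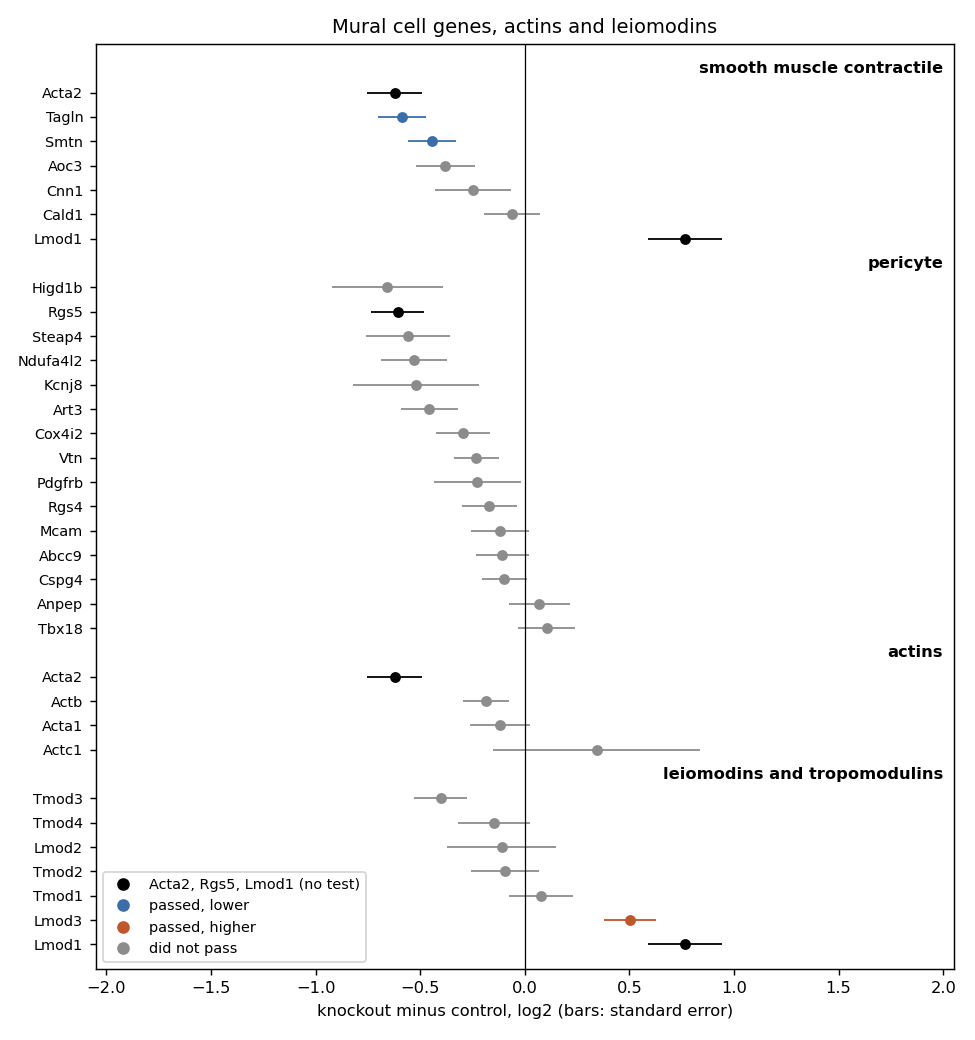
Difference of knockout minus control (log2, horizontal axis, bars are limma's standard error) for the measured genes of 4 lists; black points are the 3 chosen genes, blue and orange points passed limma at adjusted p under 0.05 and grey points did not. Lmod1 at 0.77 is the single point right of 0 among the 7 contractile genes, and 13 of the 15 pericyte genes lie left of 0.

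The 3 other actins measured did not pass. Acta1, the skeletal muscle alpha actin, differed by -0.12 ± 0.14 (95% interval -0.43 to 0.20), and Actb, a cytoplasmic actin, by -0.19 ± 0.11 (-0.43 to 0.05). Actc1, the cardiac alpha actin, differed by 0.34 ± 0.50, with an SD of 1.25 among knockouts. These differences were not tested against that of Acta2.

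Among leiomodins and the related tropomodulins, which cap the pointed ends of actin filaments, Lmod3 rose as well. Lmod3, a leiomodin of striated muscle, rose by 0.50 ± 0.12 from 14.66 to 15.16 (limma adjusted p = 0.0289), though 6 of the 8 fits without 1 animal lost this call. Its 4 knockouts lay above the controls, and 17.5% of all genes had groups that did not overlap. Lmod2, the striated leiomodin known best from heart, differed by -0.11 ± 0.26. Tmod3, a widely expressed tropomodulin, differed by -0.40 ± 0.13 (limma adjusted p = 0.0704). Tmod1 (0.08), Tmod2 (-0.10) and Tmod4 (-0.15) did not pass. Of the 6 relatives of Lmod1, 1 rose, against 4.28% of all genes, and 0 fell.

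The family of Rgs5 showed no common direction. Of 21 RGS genes, all measured, the 20 others had a median difference of 0.01, with 10 negative. Rgs11 rose from 8.04 ± 0.28 to 8.79 ± 0.03 (SD, n = 4 each), a difference of 0.74 ± 0.14 SE (limma adjusted p = 0.00819), and 0 of the 20 fell. Rgs4, also used as a mural marker and listed above, differed by -0.17 ± 0.13. Rgs2, which acts on Gq in smooth muscle, differed by -0.59 ± 0.25 (limma adjusted p = 0.171), with an SD of 0.60 among knockouts. Rgs14 differed the other way, by 0.53 ± 0.16 (limma adjusted p = 0.0654), and did not pass either. In both groups 5 members of the family were dim.

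Genes that act around Rgs5 in signalling are given next, beside the 9.28% of all genes that passed. Of 7 measured vasoconstrictor receptors 0 rose and 1 fell: Ednrb, an endothelin receptor, by 0.57 ± 0.14 (limma adjusted p = 0.0270), a call lost without any 1 of 4 animals. The receptor list had a median of -0.16. Of 9 alpha subunits of G proteins 0 passed in either direction, with a median of -0.17. Those of smallest p were Gnas (-0.49 ± 0.16, limma adjusted p = 0.0813), whose other rows read -0.20 and 0.08, and Gna11 (-0.29 ± 0.12, limma adjusted p = 0.172).

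Of 12 measured genes listed for contraction signalling 0 rose and 1 fell, with a median of -0.18. Ppp1r12b, a targeting subunit of myosin phosphatase found in striated and smooth muscle, lay at 11.08 ± 0.31 in controls and 9.88 ± 0.62 in knockouts (SD, n = 4 each). The difference was -1.20 ± 0.27 SE (limma adjusted p = 0.0200), and a second, dimmer row of the gene read -0.43. The call of Ppp1r12b was lost without any 1 of 2 animals. Of the 12 differences 9 were negative and 3 positive. Prkg1 (0.59 ± 0.18, limma adjusted p = 0.0694) and Rock1 (0.39 ± 0.14, limma adjusted p = 0.100) were positive and did not pass. A dimmer row of Rock1 read -0.03. Prkg1 and Rock1 rose under quantile normalization, where 2 genes rose and 2 fell, and under cyclic loess, where 2 rose and 1 fell.

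Transcription factors that act on contractile genes included Mrtfa and Tead3, which rose. Srf differed by 0.00 ± 0.12 (95% interval -0.26 to 0.25). Of 11 measured factors of the Srf, myocardin and TEAD group 2 (18.2%) rose, against 4.28% of all genes, and 0 fell, with a median of -0.02. Mrtfa, an actin-sensing partner of Srf, rose from 11.10 ± 0.08 to 11.72 ± 0.22 (SD, n = 4 each), by 0.62 ± 0.13 SE (limma adjusted p = 0.0129). Tead3, which binds MCAT elements, rose by 0.52 ± 0.14 (limma adjusted p = 0.0418), a call lost without any 1 of 7 animals. In both, 4 of 4 knockouts lay above the controls, while groups did not overlap in 17.5% of all genes.

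Fhl2 and Vcl rose among the cytoskeletal targets of Srf outside the smooth muscle list. Of 8 measured, 2 rose, against 4.28% of all genes, and 0 fell, with a median of -0.14. The differences of 6 of the 8 were negative. Among these, Cnn2 (-0.47 ± 0.14, limma adjusted p = 0.0561) fell under quantile normalization and under cyclic loess. Fhl2, a LIM protein of muscle, rose by 1.52 ± 0.17 from 8.01 to 9.53 (limma adjusted p = 0.000302), 2.86-fold. Vcl, which encodes vinculin, rose by 0.58 ± 0.16 (limma adjusted p = 0.0424), a call lost without any 1 of 7 animals. Fhl2 and Lmod1 were both higher in knockout muscle, while Tagln, Smtn and Acta2 were lower. Whether these transcripts came from fibres or from vessels was not tested.

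Signals by which endothelium attracts mural cells were mostly without a call. Of 21 measured genes 0 rose and 1 fell, against 5.01% of all genes that fell, with a median of -0.14. The exception was S1pr1, an endothelial receptor for sphingosine 1-phosphate, at 13.21 ± 0.43 in controls and 12.20 ± 0.19 in knockouts (SD, n = 4 each). It fell by 1.01 ± 0.20 (limma adjusted p = 0.00981), 2.01-fold. Pdgfb, the ligand of Pdgfrb, differed by -0.47 ± 0.15 and Edn1, which encodes endothelin, by -0.60 ± 0.19 (limma adjusted p = 0.0779 and 0.0774). Tgfb3, of the same list, differed the other way, by 0.46 ± 0.13 (limma adjusted p = 0.0565). None of these passed. Tgfb3 rose under quantile normalization and under cyclic loess (limma adjusted p = 0.0102 and 0.0107). Pdgfb fell under the same settings (limma adjusted p = 0.0437 and 0.0467), while Edn1 passed in neither.

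Among endothelial markers, 4 fell. Of 20 listed genes 19 were measured, 0 rose and 4 (21.1%) fell, against 5.01% of all genes. Of the 19 differences 18 were negative, with a median of -0.43. Those that fell were Gpihbp1 (-1.07 ± 0.16, limma adjusted p = 0.00262), the capillary anchor of lipoprotein lipase, Icam2 (-0.80 ± 0.16, limma adjusted p = 0.0102), Erg (-0.75 ± 0.14, limma adjusted p = 0.00800) and Emcn (-0.59 ± 0.15, limma adjusted p = 0.0346), whose call was lost without any 1 of 6 animals. Under quantile normalization and under cyclic loess 7 fell. The summed intensity of the 19 genes was 141974 to 175987 in controls and 94366 to 135462 in knockouts, without overlap, and its part in the difference of the mural genes was not tested.

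The lists for other cell types differed in their medians. Their counts stand beside the 5.01% of all genes that fell and the 4.28% that rose. Fibroblast markers had a median of -0.01 with 0 of 12 passing, while among 11 macrophage markers Cd163 fell, 0 rose and the median was 0.43. The Cd163 call (limma adjusted p = 0.0490) was lost under quantile normalization, under cyclic loess and without any 1 of 6 animals. Schwann cell markers had a median of -0.55, with 2 of 6 falling (S100b and Mal), each a call lost without any 1 of 4 animals. Adipocyte markers had a median of -0.82, with 3 of 6 falling, among them Cidec (-1.22 ± 0.26, limma adjusted p = 0.0160). Under quantile normalization and cyclic loess 2 fell, since Cfd no longer passed, and its call was also lost without any 1 of 6 animals. Of 2 measured red blood cell genes Alas2 fell by 1.04 ± 0.23 (limma adjusted p = 0.0189). Satellite cell markers had a median of -0.19, with 1 of 6 falling (Calcr, dim in knockouts).

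Among fibre markers, 0 of 5 fast genes passed (median -0.18), and 3 of 4 slow genes rose (median 1.14), against 4.28% of all genes. Tnni1, the slow troponin I, rose by 1.01 ± 0.10 (limma adjusted p = 0.000173). The fast genes lay at 18.13 to 18.56 on the log2 scale, near the top of the arrays, whose highest intensities were 437047 to 761817. The part of these lists in the differences of Acta2, Rgs5 and Lmod1 was not tested.

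**Figure D3:**
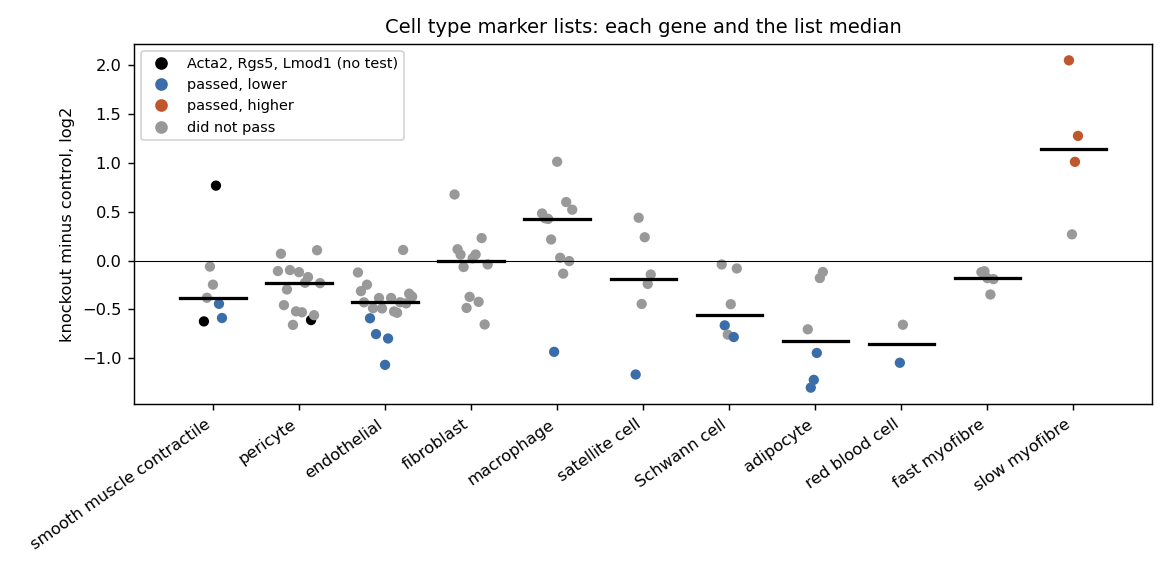
Difference of knockout minus control (log2) for each measured gene of 11 marker lists, with a black bar at the list's median; black points are Acta2, Rgs5 and Lmod1, blue and orange points passed limma at adjusted p under 0.05 and grey points did not. The medians of the contractile (-0.38), pericyte (-0.23) and endothelial (-0.43) lists lie below 0 and that of the fibroblast list (-0.01) at 0.

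The 3 genes were also compared by how single animals deviated from their group mean, which leaves the difference between the groups out. Over the 8 animals Acta2 and Rgs5 deviated with Pearson r = 0.30 (exact permutation within groups, two-sided p = 0.524) and Spearman rho = 0.21 (exact p = 0.667). Without the 2 animals farthest in Acta2, control animal 4 and knockout animal 1, r was -0.91, so the positive sign rests on those 2. Acta2 and Lmod1 gave r = 0.14 (exact p = 0.807) and rho = 0.07 (exact p = 0.885), and r = 0.36 without the 2 farthest. Rgs5 and Lmod1 gave r = -0.51 (exact p = 0.325) and rho = -0.43 (exact p = 0.370), and r = -0.12 without the 2 farthest. After Benjamini-Hochberg adjustment over the 3 pairs the exact p-values for r were 0.786, 0.807 and 0.786. None of the pairs therefore showed a relation between animals that passed a test.

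For comparison, both Acta2 rows deviated with r = 0.70 (exact p = 0.0538) and rho = 0.62 (exact p = 0.156), and r = 0.22 without the 2 farthest animals. Deviations this small are close to the spread between hybridisations, which limits what they can show.

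**Figure D4:**
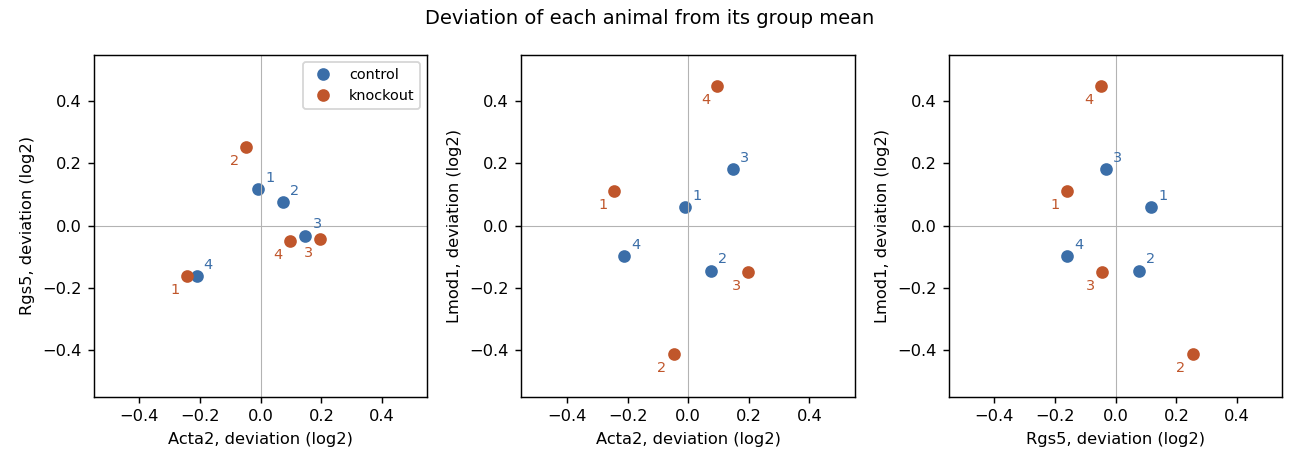
Deviation of each animal's level from the mean of its group (log2) for each pair of genes; blue points are controls, orange points knockouts, and numbers are the animals. Control animal 4 and knockout animal 1 are low in both Acta2 and Rgs5, and knockout animals 4 and 2 are the highest and lowest in Lmod1; r was 0.30, 0.14 and -0.51 from left to right.

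The genes most like each in these deviations were found among 14853 genes above the dim level in both groups, and with 8 animals high values of r occur among so many. For Acta2 they were Arl11 (r = 0.94), B830017H08Rik (0.93), Epx (0.93), Tmc6 (0.92) and Kdm2b (0.91). For Rgs5 they were Usp30 (0.99), Dtx2 (0.99), Osbpl11 (0.99), H19 (0.98) and Smim4 (0.98). For Lmod1 they were Olfr1240 (0.98), Pcdhb2 (0.94), Sebox (0.94), Ddc (0.94) and Adamts14 (0.94). None of these 15 belongs to the mural cell lists.

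Of the listed genes, r exceeded 0.7 with Acta2 for 0 of 6 contractile and 0 of 15 pericyte genes, against 1.15% of all genes compared. With Rgs5 it exceeded 0.7 for Aoc3 (0.94) and Cald1, 2 of 7 contractile genes, for Pdgfrb and Mcam, 2 of 14 pericyte genes, and for 5 of 19 endothelial genes, with Tie1 the highest at 0.86. Over all genes the share for Rgs5 was 11.4%. With Lmod1 it exceeded 0.7 for 0 genes of the 3 lists, against 4.44% of all genes.

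The differences of the 3 genes kept their sign under each of 28 other ways of processing. Acta2 ranged from -0.80 to -0.44, with both ends from fits on 1 series of animals, Rgs5 from -0.69 to -0.52 and Lmod1 from 0.60 to 0.90. With quantile normalization they were -0.57, -0.59 and 0.77, and with cyclic loess -0.54, -0.57 and 0.77. Leaving out 1 animal moved Acta2 between -0.69 and -0.54, Rgs5 between -0.69 and -0.56 and Lmod1 between 0.62 and 0.90. Since the groups of each gene do not overlap, the sign cannot turn when an animal is left out or in a fit on 1 series. Median centring, the higher floor, the dim filter, the blocks and the changed variance model left each value exactly as it was. No stability is therefore read from the sign.

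**Figure D5:**
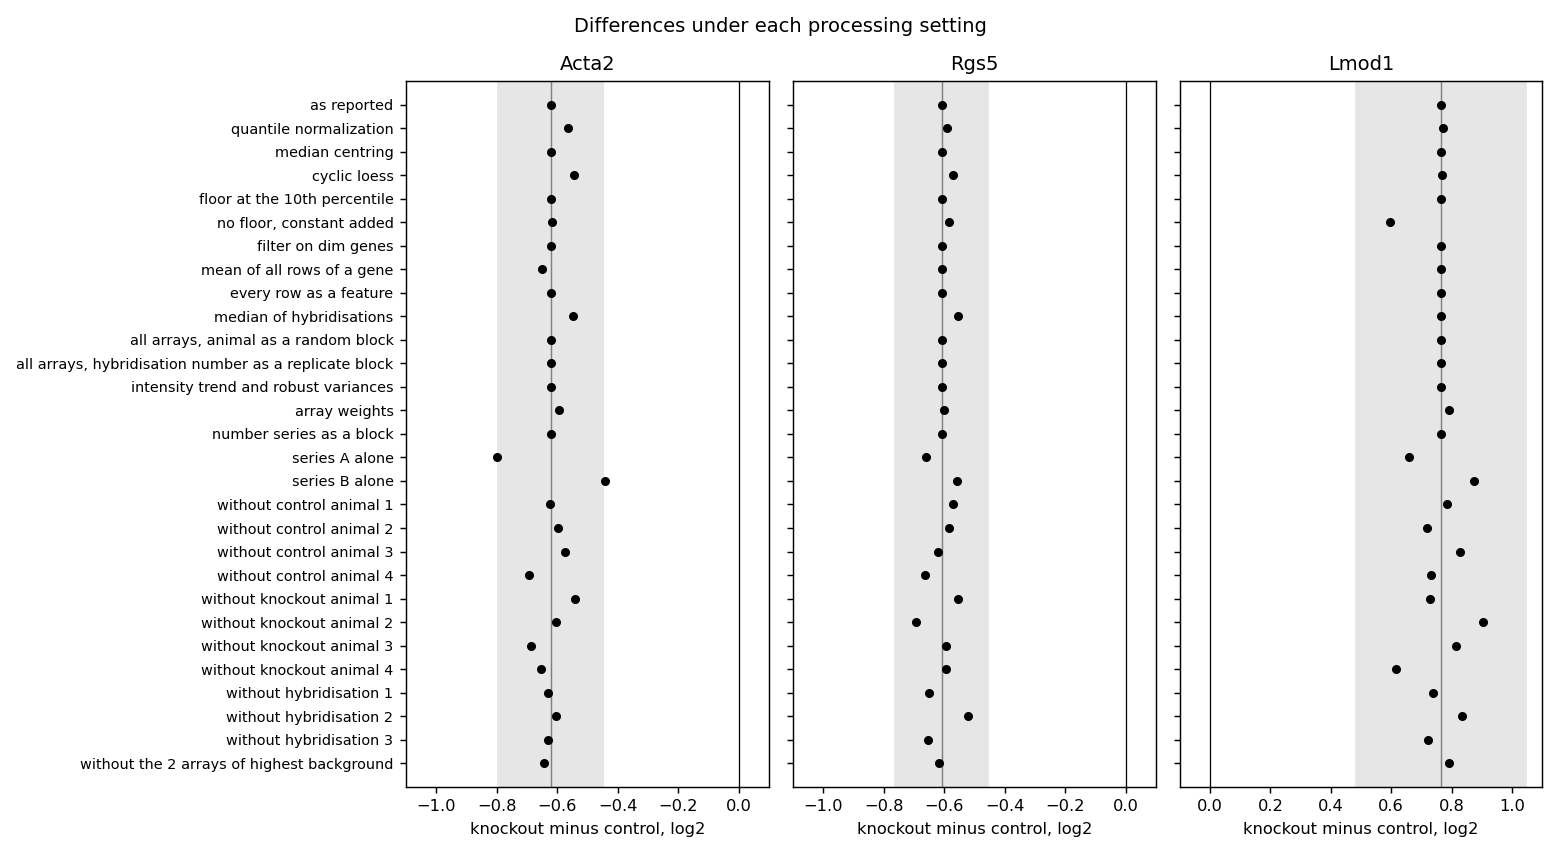
Difference of knockout minus control (log2, horizontal axis) for Acta2, Rgs5 and Lmod1 as reported (top) and under 28 other settings; the grey line is the reported value, the grey band the pooled SD between animals on either side of it, and the vertical black line 0. The fits on series A (-0.80) and series B (-0.44) lie at the edges of the band for Acta2, and all points for Rgs5 and Lmod1 lie within theirs.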

How the data were processed

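Total RNA of tibialis anterior was hybridised to arrays. The authors deposited 1 linear probe intensity per array and row. The sources used here do not state the scanner, background correction or scaling. Between 0% and 5.37% of an array's values were at or below 0, and all array medians were equal. Values under 38.8, the 5th percentile of all values, were set to it before log2. Symbols came from the platform annotation (20377 rows with 1 symbol, 6046 unnamed), and 2126 older symbols were updated through RefSeq.

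The 3 hybridisations of an animal were averaged, and 4 knockout and 4 control animals were fitted in R 4.3.3 by limma 3.58.1 (lmFit, eBayes, two-sided, Benjamini-Hochberg adjustment over 17742 genes), a procedure also tested on simulated data. The labels name separate animals. Alternatives covered normalization, floor, dim genes, probe rows, blocks, weights and left-out animals, hybridisations and arrays; leaving out the 2 arrays of highest background was chosen after seeing the data. Members and lists were chosen with earlier results of these data known. Named genes were the 3 members, up to 4 of smallest p among those that passed in each list (2 where none passed), any gene of the contractile, pericyte, actin and leiomodin lists, the 5 most like each member, and Hira. Rgs2, Rgs14, Srf, Cnn2, Pdgfb, Edn1, Tgfb3, Prkg1 and Rock1 were named after their values were seen, and are not among the named genes checked below. The number of animals and arrays limits the precision.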

Additional observations from a re-analysis of the deposited data

Results flagged for a closer look

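Of 154 groups of 4 animals examined among the named genes, 7 had an animal that stood apart from its group by Dixon's criterion, the gap to the nearest animal over the group's range, and chance sets apart about 1 in 20 groups. No row of Acta2, Rgs5 or Lmod1 was among them. Of the contractile genes, Smtn was lowest in knockout animal 3 (13.92, the next at 14.09), and Aoc3 was highest in knockout animal 2 (9.97, the next at 9.50), a level within the control range. Of the signalling genes, Gna11 was highest in knockout animal 2 (13.02), Ppp1r12b highest in control animal 2 (11.54) and Rgs11 lowest in control animal 2 (7.63). Of the genes most like Acta2 and Lmod1, Tmc6 was lowest in knockout animal 1 (9.88) and Pcdhb2 highest in control animal 3 (7.87).

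For 2 tropomodulins the differences had opposite signs in the 2 series of animals, with all animals of a series on the same side. Tmod1 differed by -0.21 in series A and 0.36 in series B, and Tmod2 by 0.11 in series A and -0.31 in series B. Whether the series differed was not tested.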

How the results depend on the processing

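No difference of Acta2, Rgs5 or Lmod1 changed sign under any of the 28 alternatives, but many of these could not change it, as given above. The size moved by more than the SD between animals only for Acta2, to -0.80 in series A alone and -0.44 in series B alone. Leaving out the 2 arrays of highest background, control animals 3 and 4 in their first hybridisation, gave -0.64, -0.62 and 0.79.

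The number of genes changed, 1647, became 2569 under quantile normalization, 3149 with all arrays and the animal as a random block, 3609 with array weights (1276 higher and 2333 lower), 62 in series A and 508 in series B. Without 1 animal or 1 hybridisation it ran from 945 to 1693, lowest without knockout animal 3 and 1062 without control animal 1. Hybridisation numbers are shared between groups, and with the hybridisation number as a replicate block 2978 genes passed; deviations of arrays of the same number correlated at a median r of -0.01, 0.10 and 0.04, with pairs from -0.63 to 0.75, -0.39 to 0.61 and -0.18 to 0.48, so the numbers were not taken to pair the arrays.

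Among the other genes named in the report, Cd163 lost its call in 15 alternatives, Cfd in 13, Tead3 and Vcl in 12 each, Smtn in 11, Lmod3 in 9, Emcn in 8, Ednrb in 7, Mal and S100b in 6 each, Mrtfa in 5 and the others that passed, except those most like each member, in at most 3. Ndufa4l2 and Art3 gained one in 10 each, Tmod3 in 9, Gnas in 5, Aoc3 in 4 and Higd1b and Steap4 in 3 each. Low signal limits Lmod1 and Tagln, and 4 animals a group limit all differences.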
